A study of Mus musculus with 8 samples.

Results

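The 10 genes described here govern entry into and exit from the cell cycle. They are the D cyclins Ccnd1, Ccnd2 and Ccnd3, their kinases Cdk4 and Cdk6, the E cyclin Ccne1, the inhibitors Cdkn1a, Cdkn1b and Cdkn1c, and the retinoblastoma gene Rb1. They were taken by symbol from a count table of 23827 rows. Each of the 10 stood on 1 row, and all 10 were among the 14592 genes with enough counts to be tested.

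The libraries came from superior cervical ganglia of C57Bl6/n mice on postnatal day 1, with the ganglion pair of 1 animal in each. All animals were homozygous for a floxed KIF1Bb allele (KIF1Bb fl/fl). The 4 controls carried no Cre (DBHcre -/-), and the 4 conditional knockouts (cKO) carried Cre driven by the promoter of Dbh, which noradrenergic cells express (DBHcre +/-). Each cKO animal had both Cre and the deletion, so effects of Cre and of the lost gene cannot be told apart. The superior cervical ganglion is a sympathetic ganglion in which neurons lie among satellite glia, Schwann cells, fibroblasts and blood vessels, and cells of the latter kinds do not normally express Dbh.

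A cell in the G1 phase commits to division when D cyclins bind CDK4 or CDK6 and the complexes phosphorylate the retinoblastoma protein. Phosphorylation frees E2F factors, which switch on cyclin E and the genes of DNA replication. The inhibitors p21 (Cdkn1a), p27 (Cdkn1b) and p57 (Cdkn1c) bind cyclin-kinase complexes and hold cells out of the cycle. Sympathetic neuroblasts divide in the embryo and most have left the cycle around birth, while glia and connective tissue cells go on dividing.

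Total counts lay between 16214912 and 18114418 per library. Kif1b, the targeted gene, fell from 1224 ± 222 CPM in controls to 260 ± 52.7 CPM in the cKO group (SD, n = 4 each; adjusted p = 3.43e-04 in edgeR), and the groups did not overlap. CPM are counts per 1e6 reads, scaled here with TMM factors, which correct for differences in library composition. Of all tested genes 397 (2.72%) had an adjusted p under 0.05 by the quasi-likelihood test of edgeR, 234 higher and 163 lower in cKO ganglia, or 343 and 145 when scaled by library size alone. The ganglia held the transcripts of their labelled tissue, with Th at 1344 ± 107 and Dbh at 2421 ± 195 CPM in controls (SD, n = 4). Libraries control 1 and cKO 1 stood apart on the first principal component, with 37.1% of the variance, and were also high in muscle and cartilage genes (135 and 275 CPM summed over 10 genes, against 63.6 to 84.9 in the other libraries). Sensory neuron genes were highest in control 4 and cKO 4 (182 and 306 CPM summed over 7 genes, against 120 to 160 in the others).

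Ccnd1 was the only member that passed the test, and it rose about 2-fold in cKO ganglia. That is 1 member of 10 called higher and 0 lower, where 1.60% of all tested genes were called higher and 1.12% lower. At an unadjusted p under 0.05 the count was 5 members of 10 (Ccnd1, Ccnd2, Ccnd3, Cdk4 and Cdkn1c), against 16.8% of all tested genes. The median log2 fold change (cKO over control) was 0.30 over the 10 members and -0.00062 over all tested genes, and 8 of the 10 members were above 0. Groups did not overlap, with cKO higher, in 2 of the 10 (Ccnd1 and Ccnd2), against 6.0% of tested genes, and with cKO lower in 0, against 5.02%. In bulk tissue, fewer cells of a type and less RNA per cell cannot be told apart, so each value below is a level in the whole ganglion.

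**Figure D1:**
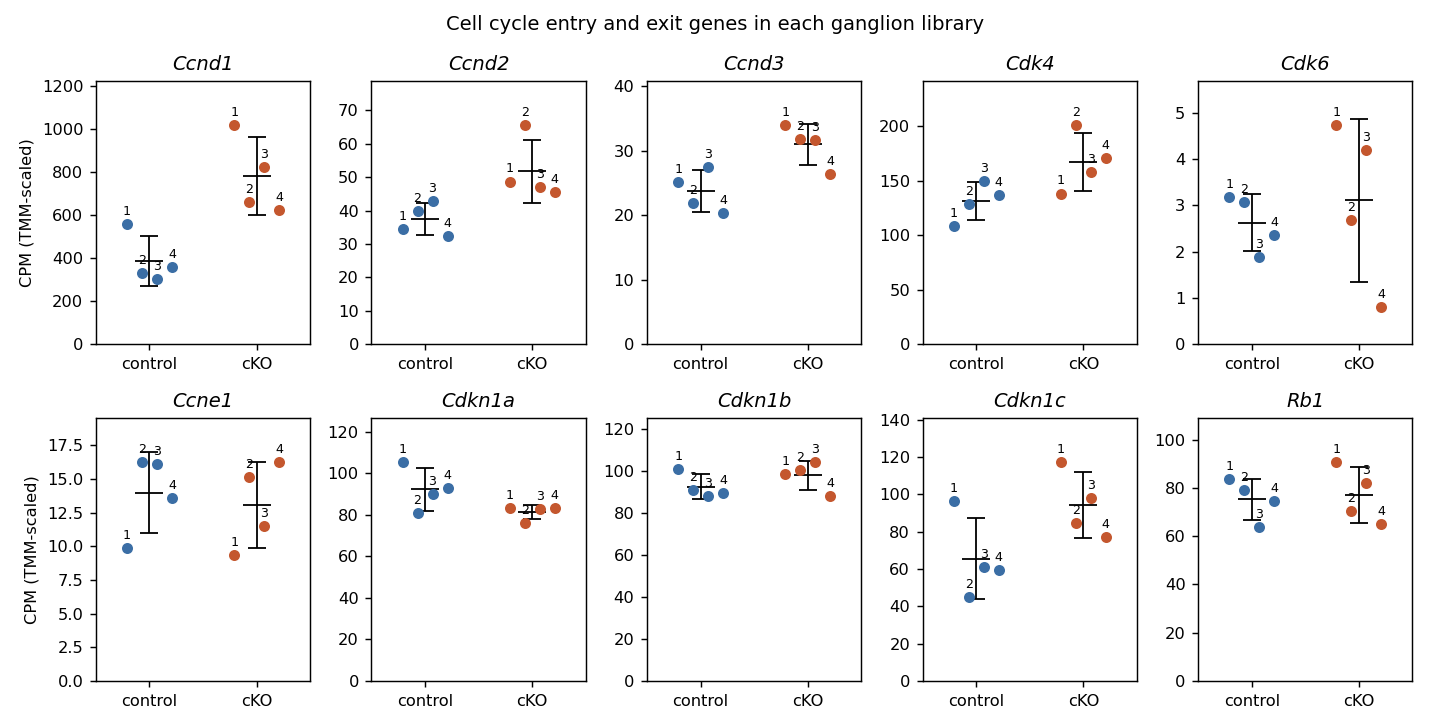
Level of each member in every library (CPM, TMM-scaled, each axis from 0); points are libraries numbered as in the labels, and black bars give the mean and SD of 4. Control and cKO libraries separate for Ccnd1 and Ccnd2 and overlap for the other 8 genes.

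The promoters of Cdk4 and Cdkn1a are shown because they carry letters recognised by well-studied regulators of this pathway. RefSeq start sites on GRCm38.p6 were matched for 6 of the 10 members (Cdk4, Cdk6, Ccne1, Ccnd3, Cdkn1a and Cdkn1b), and the others, Ccnd1, Ccnd2, Cdkn1c and Rb1, were not matched. The windows are the 250 bases before the start, on the plus strand, written 5′ to 3′. For Cdk4 (chr10:127063285-127063534) capitals mark the E-box CACGTG, a palindrome bound by basic helix-loop-helix leucine zipper factors. For Cdkn1a (chr17:29090729-29090978) they mark a pair of CATG cores in the spacing of a p53 response element.
Cdk4: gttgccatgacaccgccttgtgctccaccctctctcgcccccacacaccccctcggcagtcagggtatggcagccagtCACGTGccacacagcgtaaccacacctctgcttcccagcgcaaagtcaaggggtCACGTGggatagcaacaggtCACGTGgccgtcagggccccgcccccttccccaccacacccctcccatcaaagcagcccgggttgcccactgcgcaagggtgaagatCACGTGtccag
Cdkn1a: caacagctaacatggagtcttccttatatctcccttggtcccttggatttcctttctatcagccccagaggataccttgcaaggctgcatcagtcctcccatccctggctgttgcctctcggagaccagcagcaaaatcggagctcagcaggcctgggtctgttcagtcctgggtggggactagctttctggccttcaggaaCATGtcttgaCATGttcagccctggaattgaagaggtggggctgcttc

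The Cdk4 window held 4 matches to CACGTG, whose last bases lay 167, 113, 93 and 6 bases before the start. At least 1 match was found in 6.02% of the 32851 windows of the same length, and 4 or more in 7 of them, or 0.0213%. Cdk6 had 1 match, and the other 4 matched members had none in their windows. The pattern CATGNNNNNNCATG, which also reads the same on both strands, occurred once in the Cdkn1a window, ending 35 bases before the start, and in 0.490% of all windows. A second RefSeq start of Cdkn1a, with the window chr17:29093519-29093768, had no match to it. In all, 6 patterns were counted in these windows, and the shares above were not adjusted for the choice among them. An E2F-like pattern, present in 4.28% of all windows, had 1 match in Cdk6. It had none in the other matched members, Ccne1 included. Another of the 6 had 4 matches in Ccne1, and 4.09% of all windows had 4 or more of it. Windows of 1 gene can overlap, and a match describes letters only. The counts are per gene and do not show which start was used.

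Among the D cyclins, which carry growth signals to the kinases, Ccnd1 (cyclin D1; chromosome 7, 144929931 to 144939925, minus strand, GRCm38) had 559, 329, 302 and 357 CPM in controls 1 to 4. Its levels in cKO 1 to 4 were 1018, 661, 824 and 621 CPM. Every cKO library was above every control, though control 1, at 559, came close to cKO 4. Means were 387 ± 117 and 781 ± 181 CPM (SD, n = 4 each), a log2 fold change of 1.01 (SE 0.21; adjusted p = 0.0358 in edgeR), or 2.02-fold with a 95% interval from 1.45 to 2.80. The 80443 reads of Ccnd1 over the 8 libraries make counting error small beside the spread between animals. Ccnd1 overlaps LTO1 (named Oraov1 in the table) on the opposite strand, and the use of strand in counting was not given in the sources used here, so reads of such pairs cannot be told apart. Oraov1 had 3818 reads in all and a log2 difference of -0.09 (SE 0.12). The call was close to the threshold. It was lost without control 2 (adjusted p = 0.14 in edgeR), control 3 (0.0794), control 4 (0.121), cKO 1 (0.0669), cKO 2 (0.0587) or cKO 3 (0.0983), and it held without control 1 (0.0066) or cKO 4 (0.0371), with log2 fold changes between 0.847 and 1.24.

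Ccnd2 (cyclin D2; chromosome 6, 127125162 to 127152193, minus strand) had 34.5, 39.9, 42.9 and 32.5 CPM in controls 1 to 4. Its cKO levels were 48.7, 65.6, 47.1 and 45.5 CPM. Groups did not overlap, and cKO 2 was well above the other 3. On the log2 scale the difference was 0.47 (SE 0.14; adjusted p = 0.123 in edgeR), with a 95% interval from 0.15 to 0.78, and did not pass. Ccnd2 overlaps 9330179D12Rik on the opposite strand, which had 40 reads in all.

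Ccnd3 (cyclin D3; chromosome 17, 47505051 to 47599691, plus strand) had 25.1, 21.9, 27.5 and 20.3 CPM in controls and 34.0, 31.8, 31.6 and 26.4 CPM in cKO 1 to 4. Control 3 was above cKO 4, so the groups overlapped by that library alone. The log2 difference was 0.38 (SE 0.13; adjusted p = 0.155 in edgeR), with an interval from 0.10 to 0.67, and did not pass. Ccnd3 overlaps Bysl on the opposite strand, which had more reads than Ccnd3 (6958 against 3749) and a log2 difference of -0.03 (SE 0.11).

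Per length of exon, Ccnd1 made up nearly all D cyclin transcript in both genotypes. Divided by the merged exon length of the GENCODE annotation, its share of the summed D cyclin level was 92.1 ± 2.3% in control and 94.7 ± 1.3% in the cKO group (SD, n = 4 each). Ccnd2 made up 4.76 ± 1.5% and 3.28 ± 1.02%, and Ccnd3 3.19 ± 0.88% and 2.06 ± 0.29%. With the length of the longest transcript the share of Ccnd1 was 89.0 ± 3.1% and 92.6 ± 1.6%.

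The size of the change was compared between the D cyclins as a ratio within each library, which needs no scaling between libraries. The log2 ratio of Ccnd1 to Ccnd2 was 3.33 ± 0.53 in control and 3.90 ± 0.46 in cKO ganglia (SD, n = 4 each), a difference of 0.57 with an exact two-sided permutation p of 0.171 (adjusted p = 0.24 over 7 ratios). For Ccnd1 to Ccnd3 the difference was 0.64 (exact permutation p = 0.0571, adjusted p = 0.133), and for Ccnd2 to Ccnd3 it was 0.07 (exact permutation p = 0.686, adjusted p = 0.686). So Ccnd1 was not shown to have changed more than the other D cyclins. With 70 assignments of libraries the smallest possible p is 0.0286, and a single ratio at that value would have an adjusted p of 0.2.

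**Figure D2:**
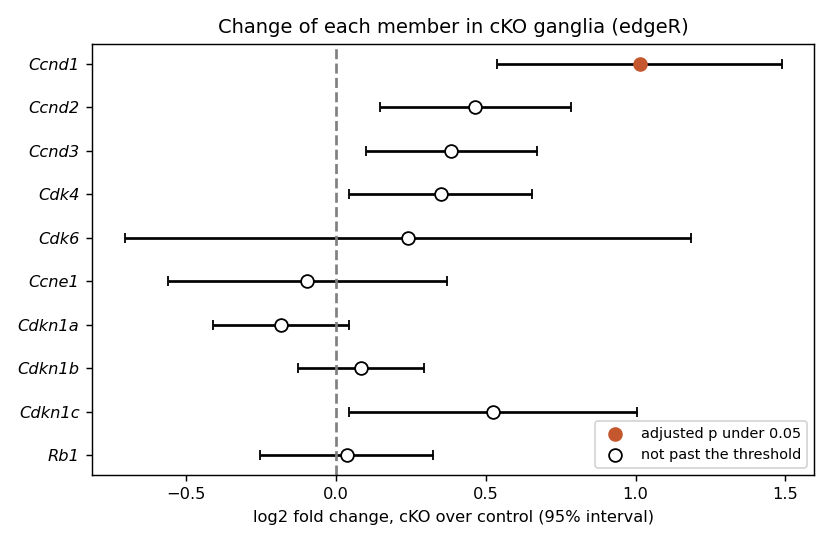
Log2 fold change of each member, cKO over control, with its 95% interval from edgeR (4 libraries a group). The interval of Ccnd1 runs from 0.54 to 1.49 and the filled point marks its adjusted p under 0.05; the intervals of Ccnd2, Ccnd3, Cdk4 and Cdkn1c also lie above 0, but their adjusted p did not pass.

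Of the kinases, Cdk4 (chromosome 10, 127063534 to 127067920, plus strand), the main partner of D cyclins in most tissues, had 109, 129, 150 and 137 CPM in controls 1 to 4. In cKO 1 to 4 it had 138, 201, 158 and 171 CPM. The lowest library of each group was the one numbered 1, and cKO 1 lay between controls 4 and 3. The log2 fold change was 0.35 (SE 0.14; adjusted p = 0.226 in edgeR), with an interval from 0.04 to 0.66, and did not pass. Cdk4 overlaps Tspan31 on the opposite strand, which had 14279 reads in all and a log2 fold change of 0.10 (SE 0.14).

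Cdk6 (chromosome 5, 3341485 to 3531008, plus strand), the alternative kinase, had the fewest reads of the members, 390 in all. Controls 1 to 4 had 52, 49, 33 and 39 reads and cKO 1 to 4 had 83, 45, 74 and 15. The cKO libraries therefore held both the highest and the lowest values, at 4.74 and 0.809 CPM. The log2 fold change was 0.24 (SE 0.43; adjusted p = 0.861 in edgeR), and its interval from -0.70 to 1.19 is from 0.614-fold to 2.27-fold on the linear scale. The 4 cKO libraries spread widely, with a coefficient of variation of 56.7%. The log2 ratio of Cdk4 to Cdk6 was 5.6 ± 0.52 in control and 5.93 ± 1.2 in cKO ganglia (SD, n = 4 each; exact permutation p = 0.686, adjusted p = 0.686 over 7 ratios).

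Ccne1 (cyclin E1; chromosome 7, 38097984 to 38107534, minus strand), which acts with CDK2 after the D cyclins and is itself an E2F target, had 9.87, 16.3, 16.1 and 13.6 CPM in controls 1 to 4. In cKO 1 to 4 it had 9.37, 15.2, 11.5 and 16.3 CPM. The lowest library of both groups was again the one numbered 1, and the ranges of the groups nearly coincided. The fitted log2 difference was -0.10 (SE 0.21; adjusted p = 0.897 in edgeR), with an interval from -0.56 to 0.37.

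Among the inhibitors, Cdkn1c (p57; chromosome 7, 143458339 to 143461050, minus strand), an imprinted gene active in tissues leaving the cycle, had 96.6, 45.3, 61.0 and 59.4 CPM in controls 1 to 4. Its levels were 118, 84.8, 97.9 and 77.0 CPM in cKO 1 to 4. Control 1 lay among the cKO libraries, and the other 3 controls were below all of them. The log2 fold change was 0.52 (SE 0.22; adjusted p = 0.248 in edgeR), with an interval from 0.04 to 1.01, and did not pass. Without control 1 it was 0.77 and passed (edgeR adjusted p = 0.0353), and without both libraries numbered 1, an alternative chosen after seeing the data, it was 0.65 (adjusted p = 0.0442).

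Cdkn1a (p21, chromosome 17, 29090976 to 29100727, plus strand) is a p53 target induced by DNA damage and stress. It had 106, 80.7, 89.9 and 92.6 CPM in controls 1 to 4 and 83.0, 76.2, 82.6 and 83.1 CPM in cKO 1 to 4. The cKO values lay in the lower part of the control range or, for cKO 2, below it. Its log2 fold change was -0.18 (SE 0.10; adjusted p = 0.425 in edgeR), with an interval from -0.41 to 0.04. Cdkn1b (p27; chromosome 6, 134920401 to 134925513, plus strand), an inhibitor that keeps resting cells and neurons out of the cycle, varied least of the members in controls, between 87.8 and 101 CPM in control and between 88.0 and 104 CPM in cKO libraries. In the cKO group Cdkn1a varied less, with a coefficient of variation of 4.16% against 7.14% for Cdkn1b. The log2 fold change of Cdkn1b was 0.08 (SE 0.09; adjusted p = 0.757 in edgeR), with an interval from -0.13 to 0.29. On the linear scale that interval is from 0.915-fold to 1.23-fold.

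Ratios between the inhibitors gave the one comparison within the families in which the groups did not overlap. The log2 ratio of Cdkn1a to Cdkn1c was 0.13, 0.83, 0.56 and 0.64 in controls 1 to 4 and -0.50, -0.15, -0.24 and 0.11 in cKO 1 to 4. The cKO mean was lower by 0.74 (log2 difference -0.74, exact permutation p = 0.0286, the smallest possible, adjusted p = 0.133 over 7 ratios). For Cdkn1a to Cdkn1b the difference was -0.26 (exact permutation p = 0.0571, adjusted p = 0.133). For Cdkn1c to Cdkn1b it was 0.48 (exact permutation p = 0.114, adjusted p = 0.2). None of the 7 ratios passed after adjustment.

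**Figure D3:**
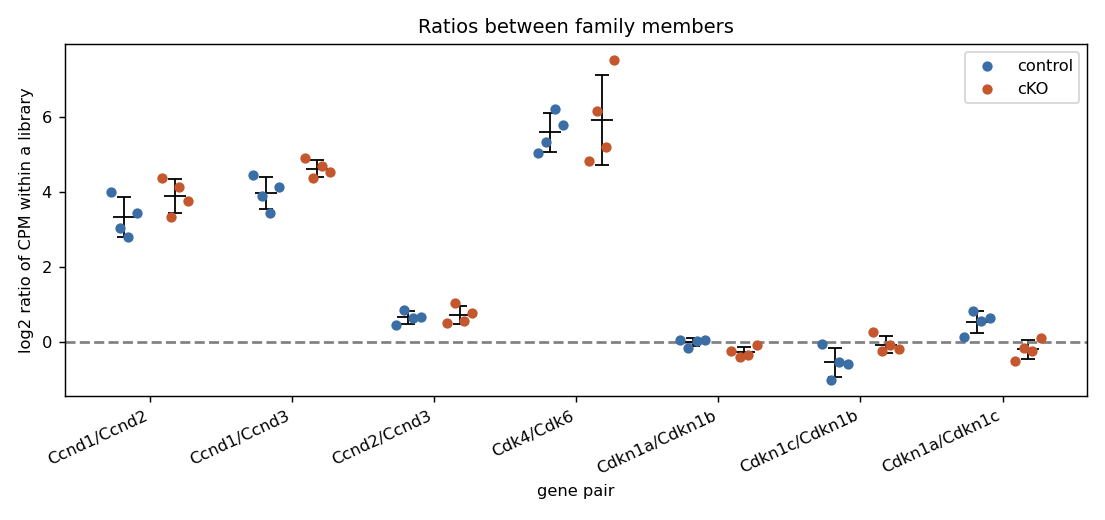
Log2 ratio of CPM between 2 members within each library, for the 7 pairs tested; points are libraries, and black bars give the mean and SD of 4. The groups separate only for Cdkn1a to Cdkn1c, and all 4 cKO libraries lie below the lowest control at 0.13.

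Rb1 (chromosome 14, 73183673 to 73325822, minus strand), the pocket protein gene on which the D cyclin kinases act, had between 63.9 and 83.6 CPM in control and between 65.0 and 91.0 CPM in cKO libraries. A log2 difference of 0.04 was fitted (SE 0.13; adjusted p = 0.944 in edgeR), with an interval from -0.25 to 0.32. Rb1 spans Lpar6 and overlaps Rcbtb2, both on the opposite strand, and these did not pass, with 0.29 (SE 0.18) and 0.15 (SE 0.11) on the log2 scale.

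Levels can be compared between genes only per length. In control ganglia, as CPM per kilobase of merged exons, Ccnd1 stood first with 82.2 ± 24.8, followed by Cdk4 with 40.4 ± 5.3, Cdkn1c with 32.2 ± 10.7 and Cdkn1a with 26 ± 2.9 (SD, n = 4 each). Cdkn1b came next with 20.3 ± 1.3 and Rb1 with 12.5 ± 1.4. Far below were Ccne1 with 5.25 ± 1.13, Ccnd2 with 3.98 ± 0.51, Ccnd3 with 2.70 ± 0.37 and Cdk6 with 0.188 ± 0.044. The ranges of Cdk4 and Cdkn1c, of Cdkn1c and Cdkn1a, and of Ccne1 and Ccnd2 overlapped. The order of those neighbours within each library was not tested. Per length of the longest transcript, Cdkn1a stood above Cdkn1c and Ccnd3 above Ccnd2 in controls. In cKO ganglia Ccnd1 stood at 166 ± 38 and Cdk4 at 51.5 ± 8.1 per kilobase, and Ccnd2 and Ccne1 changed places. The D cyclin and the kinase at the top were thus Ccnd1 and Cdk4, in both genotypes and with both measures of length.

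**Figure D4:**
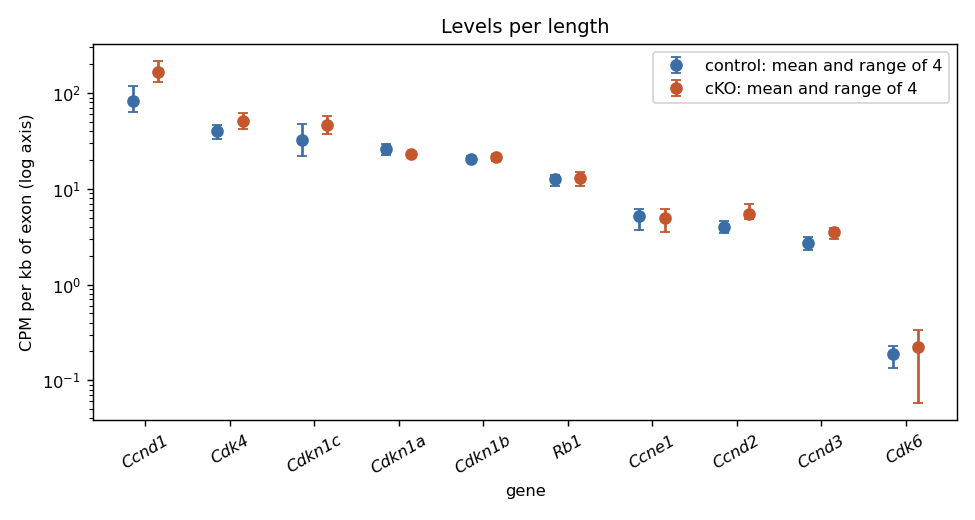
CPM per kilobase of merged exons for the 10 members (log axis), with the mean and the range of 4 libraries, ordered by the control mean. Ccnd1 is highest in both groups (82.2 and 166), and Cdk6 lowest (0.188 and 0.222).

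The spread between animals of 1 genotype differed widely between members. In controls the coefficient of variation was 33.4% for Cdkn1c and 30.2% for Ccnd1, and 6.43% for Cdkn1b. Part of this followed single libraries. Control 1 was the highest control for 6 of the 10 members and the lowest for Cdk4 and Ccne1, and cKO 1 was the highest cKO library for 5 members and the lowest for the same 2. For 7 members cKO 4 was the lowest cKO library. With both libraries numbered 1 left out, the log2 fold change of Ccnd1 was 1.09 (edgeR adjusted p = 0.00572). With both libraries numbered 4 left out it was 1.07 and did not pass (adjusted p = 0.132). Both alternatives were chosen after seeing the data.

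Other genes of the G1 pathway showed no change that passed. Of 29 listed, 27 were tested, 14 had log2 fold changes above 0 and 13 below, and the median was 0.0029. Cdk2, the kinase of cyclin E, had the smallest p of them. It had between 14.8 and 21.8 CPM in control and between 21.3 and 26 CPM in cKO libraries, a log2 difference of 0.44 (SE 0.14; adjusted p = 0.146 in edgeR). Lin9, a subunit of the complex that represses or activates cell cycle genes, had 0.31 (SE 0.13). E2f1, an activator that the retinoblastoma protein binds and holds, had 0.29 (SE 0.16), and the second E cyclin Ccne2 had -0.08 (SE 0.22). The pocket protein genes Rbl1 and Rbl2 had 0.21 (SE 0.18) and -0.08 (SE 0.12).

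The INK4 inhibitors, which bind CDK4 and CDK6 themselves, also did not pass where tested. Cdkn2d was the most abundant of them in CPM, with 81.1 ± 15.7 and 75.4 ± 15.6 in controls and cKO (SD, n = 4 each), and Cdkn2c had 7.41 ± 1.11 and 8.81 ± 1.35 CPM. Their log2 differences were -0.11 (SE 0.18) and 0.25 (SE 0.17). Cdkn2a and Cdkn2b had too few reads to be tested, with 12 and 82 over all 8 libraries.

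Downstream of the G1 step, 2 of 24 replication genes rose and none fell, where 1.60% of all tested genes were called higher and 1.12% lower. Mcm7, a subunit of the replicative helicase, went from between 20.7 and 25.7 CPM in control to between 36.4 and 40.8 CPM in cKO libraries (a log2 difference of 0.67, SE 0.10; adjusted p = 0.011 in edgeR). Cdt1, which loads that helicase, went from between 8.59 and 12.4 to between 15.2 and 19 CPM (a log2 difference of 0.72, SE 0.15; adjusted p = 0.031 in edgeR). The call of Mcm7 was lost without control 4 (adjusted p = 0.0555). That of Cdt1 was lost in 7 of the 8 fits with 1 library left out, all except the one without control 1. The median over the 24 genes was 0.31, and 23 were above 0. Groups did not overlap in 4 of the 24, all with cKO higher, against 6.0% of all tested genes. None of 20 mitosis genes passed. Their median was 0.31, with all 20 above 0 and 0 without overlap of the groups. Those with the smallest p were Ube2c at 0.55 (SE 0.17) and Birc5 at 0.45 (SE 0.15), and Mki67, a protein of dividing cells, had 0.31 (SE 0.16).

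Replication and mitosis genes had another order of libraries than Ccnd1. The mean log2 CPM of the 24 replication genes was lowest in control 1 (3.69) and highest in cKO 2 (4.72), while Ccnd1 was highest in number 1 of each group. Mitosis genes also had their lowest mean in control 1 (3.54) and their highest in cKO 2 (4.43).

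**Figure D5:**
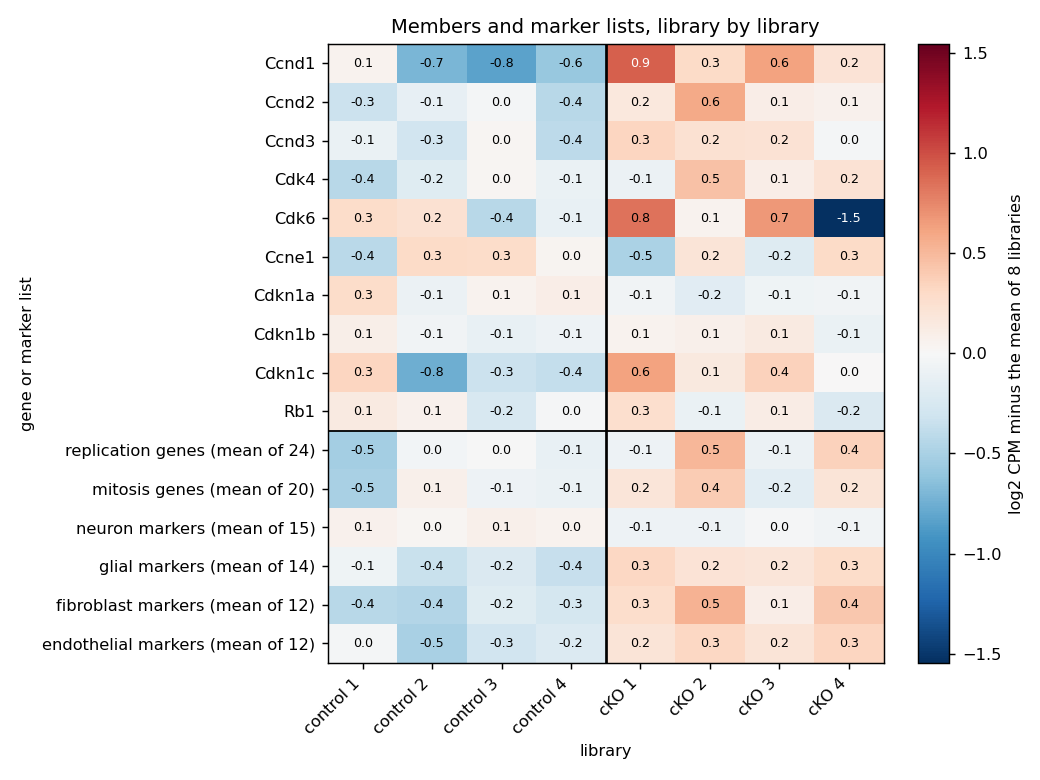
Log2 CPM (prior count 2) of each member, and mean log2 CPM of 6 gene lists, in the 8 libraries, each row minus its mean over the 8. Ccnd1 is lowest in controls 2 to 4 and highest in cKO 1; replication and mitosis genes are lowest in control 1; glial, fibroblast and endothelial rows are above 0 in the 4 cKO libraries.

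Like Cdkn1a, the 18 other p53 targets listed did not pass. Their median log2 fold change was 0.04, with 11 above 0 and 7 below. Rrm2b, a ribonucleotide reductase subunit, had -0.35 (SE 0.12; adjusted p = 0.169 in edgeR), and Plk2, a polo-like kinase, had -0.24 (SE 0.09; adjusted p = 0.19 in edgeR).

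Some markers of glia, fibroblasts and vessels were called higher in cKO ganglia, as Ccnd1 was. For glial markers the order of libraries within a group depended on the measure, summed CPM or mean log2 CPM. Ccnd1 was highest in cKO 1 (1018 CPM), while summed glial and fibroblast markers were highest in cKO 2 (4246 and 12128 CPM). Among controls Ccnd1 was lowest in control 3 (302 CPM), where glial and fibroblast sums were highest (3118 and 7674 CPM). Much of that glial sum came from Apoe (1558 CPM) and Fabp7 (521 CPM). In mean log2 CPM, glial markers were highest in control 1 (6.41) and cKO 1 (6.79), the libraries where Ccnd1 was highest. Fibroblast markers were highest in control 3 (7.01) and cKO 2 (7.74) by that measure too. Endothelial markers were highest among controls in control 1 (295 CPM), as was Ccnd1. Over all tested genes 1.60% were called higher and 1.12% lower. Of 14 glial markers 3 rose (Mbp, Apoe and Ttyh1), of 12 fibroblast markers 7 (Ogn, Pdgfra and Prrx1 had the smallest p), of 12 endothelial markers 3 (Pecam1, Eng and Tek) and of 10 pericyte and smooth muscle markers 2 (Pdgfrb and Notch3), and none fell. These numbers moved with single libraries: with 1 library left out they ran from 0 to 6 for glial, 2 to 6 for fibroblast, 0 to 5 for endothelial and 0 to 4 for mural markers. They were 0, 2, 0 and 0 without control 4, 1, 2, 0 and 0 without control 2, 2, 6, 1 and 0 without control 3, and 6, 6, 5 and 2 without control 1. Without cKO 1, 2, 3 and 4 they were 2, 5, 2 and 4, then 1, 3, 1 and 1, then 1, 6, 0 and 0, and then 1, 5, 2 and 2. Median log2 fold changes of these lists were 0.48, 0.64, 0.52 and 0.76. Summed levels did not overlap between groups: glial markers had 2510 to 3118 CPM in control and 3669 to 4246 CPM in cKO libraries, and fibroblast markers had 5977 to 7674 and 8269 to 12128 CPM. Endothelial markers had 211 to 295 and 344 to 376 CPM, and mural markers 216 to 229 and 322 to 440 CPM. Of 15 neuron markers, some noradrenergic and some of neurons in general, none passed. Their median was -0.12, and their sum was 22066 to 23690 CPM in control and 18486 to 20720 CPM in cKO libraries, also without overlap. No listed marker of these 5 types was at 0 in all libraries.

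Macrophage (12), sensory neuron (7), and muscle and cartilage markers (10) had none that passed among those tested, with medians of 0.20, 0.21 and 0.88. The last was -0.52 without cKO 1, and that of the sensory markers was -0.017 without cKO 4. Those of smallest p were Ptprc at 0.35 and Ctss at 0.31 among macrophage markers, Prrxl1 at 1.35 and Ntrk2 at 0.21 among sensory markers, and Col11a1 at 0.45 and Actc1 at 1.16 among muscle and cartilage markers (log2 differences that did not pass). Of 8 chromaffin markers Cox4i2 and Penk rose and Slc18a1 fell, where 1.60% of all tested genes were called higher and 1.12% lower. The median of these 8 was -0.03, and none was called without control 2 or control 4.

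Among neuron markers Slc6a2, the noradrenaline transporter, had -0.51 (SE 0.12), and Prph, a neuronal filament, had -0.42 (SE 0.10). Of the markers named, Ogn had 59.2 ± 3.1 and 116 ± 15 CPM in controls and cKO (SD, n = 4 each), Apoe 1381 ± 227 and 2142 ± 185 CPM, Pecam1 42.8 ± 2.9 and 62.4 ± 2.8 CPM and Pdgfrb 37.3 ± 6.1 and 62.4 ± 8.0 CPM.

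Set against the mean log2 CPM of these lists in the same library, a comparison chosen after seeing the data, Ccnd1 differed between groups by 0.31 to 0.73 on the log2 scale. Relative to glial markers it was higher in cKO ganglia by 0.53 (exact permutation p = 0.0857, adjusted p = 0.206 over 6 lists). Relative to fibroblast, endothelial and mural markers it was higher by 0.36, 0.51 and 0.31 (exact permutation p = 0.171, 0.114 and 0.229), and relative to replication and mitosis genes by 0.69 and 0.73 (exact permutation p = 0.171 and 0.114). None passed after adjustment, and a single difference at the smallest possible p of 0.0286 would not have passed either. The part of these cell types in the rise of Ccnd1 was not tested.

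Of 11731 other genes at a mean of 5 CPM or more, Gjc3, a connexin gene of glia, had the pattern over the 8 libraries most like that of Ccnd1. The root mean square difference of their centred log2 CPM was 0.0937. Gjc3 had 41.6 ± 13.5 CPM in controls and 89.5 ± 18.5 CPM in the cKO group (SD, n = 4 each), a description only, since the likeness includes the difference between groups. Next were Cyp2d22, a cytochrome P450 gene, at 0.14, and Txnip, a thioredoxin-binding protein gene, at 0.159.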

How the data were processed

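RNA of 8 ganglion pairs was sequenced as TruSeq v2 libraries of polyadenylated RNA, per the labels' protocols. The authors deposited raw read counts per gene symbol. The submitters' processing notes name STAR and mm10, while the counting program, annotation and handling of strand were not given in the sources used here. Columns were matched to libraries by title. For the tests edgeR 4.0.16 was run under R 4.3.3 with TMM, filterByExpr and a robust quasi-likelihood fit on group alone, and p-values were adjusted by Benjamini-Hochberg over all tested genes (threshold 0.05). The steps were tested on simulated data. SE is |log2 fold change| over the root of F, and 95% intervals use its t distribution. Log2 CPM have a prior count of 2. Ratios were tested with exact two-sided permutations. The labels do not say more of the replicates than that each is 1 animal's ganglia, and libraries of 1 group differed by more than sampling noise (chi-square per gene from 7.72 to 55.5). Positions and lengths come from GENCODE vM21 (GRCm38, equal to mm10).

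Members and lists were chosen with earlier results of these data known. Named genes were the members, Kif1b, the called genes of smallest p of each list (at most 3) or else the 2 of smallest p, 10 other cell cycle genes, and the 3 genes most like a called member. Th, Dbh and genes overlapping a member were added after their values were seen. Alternatives were DESeq2 size factors, library size alone, other filters, DESeq2 1.42.0, limma 3.58.1 (voom), a replicate block, left-out libraries, another prior count and another length. Figures were drawn with matplotlib 3.10.9.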

Additional observations from a re-analysis of the deposited data

Results flagged for a closer look

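In 20 groups of 4 values (10 members in each genotype), 2 held a library far from the other 3, and chance gives about 1 in 20. Both were cKO 2: Ccnd2 stood at 65.6 CPM there, against 45.5 to 48.7 in the other cKO libraries, and Cdkn1a stood at 76.2 CPM, against 82.6 to 83.1.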

How the results depend on the processing

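The log2 fold changes of Ccnd1, Ccnd2, Ccnd3, Cdk4, Cdkn1a, Cdkn1b and Cdkn1c kept their direction in all 18 other fits. Genes higher and lower in cKO ganglia numbered 541 and 436 with DESeq2, 883 and 656 with voom and sample weights, 26 and 39 without both libraries numbered 4, and 33 to 318 and 40 to 196 with 1 library left out. Members called higher were 4 with voom and sample weights, 2 without both libraries numbered 1, 0 without both numbered 4, and 0 to 2 with 1 library left out; 0 were called lower in any fit.

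Voom with sample weights also called Ccnd2 (0.51), Ccnd3 (0.52) and Cdkn1c (0.68); Cdkn1c was 0.65 without both libraries numbered 1, and Ccnd1 was 1.07 and not called without both numbered 4. Cdk6 was -0.0092 with voom. With 1 library left out, ranges were 0.847 to 1.24 for Ccnd1, 0.383 to 0.767 for Cdkn1c, -0.0475 to 0.562 for Cdk6, -0.237 to 0.0211 for Ccne1 and -0.0649 to 0.11 for Rb1. Ratio differences then ran from -0.034 to 0.141 for Ccnd2 to Ccnd3 and from -0.199 to 0.70 for Cdk4 to Cdk6. The median of chromaffin markers was 0.0178 with library size alone, -0.0997 to 0.0373 with 1 library left out (0.0373 without control 4, 0.0254 without cKO 1), 0.00663 without both numbered 1 and 0.045 without both numbered 4. The causes were not tested.

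Same-numbered libraries did not deviate together in every pair (r = 0.725, 0.352, -0.302 and 0.265), nor did every library correlate best with its own number, so the numbers were not taken as pairs. With the number as a replicate block 425 genes were higher and 262 lower, and 2 members were called higher, Ccnd1 and Cdkn1c (0.56). Cdk6 had the fewest reads of the members, 390 in all.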

Other observations

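Cdkn1c lies in a cluster of imprinted genes on distal chromosome 7. None of the 10 tested genes around it, Igf2 and H19 included, passed, and their median log2 fold change was 0.26, with 7 above 0 and 3 below. H19 had the largest, 0.85 (SE 0.27), and Kcnq1ot1 had -0.33 (SE 0.13). Groups did not overlap in 2 with cKO higher (Igf2 and Cd81), against 6.0% of tested genes. The same held for 2 with cKO lower (Dhcr7 and Osbpl5), against 5.02%. Igf2, a growth factor gene, had 352 ± 68 and 566 ± 102 CPM in controls and cKO (SD, n = 4 each; a log2 difference of 0.69, SE 0.16, adjusted p = 0.0528 in edgeR), with no overlap of the groups. Dhcr7, a cholesterol synthesis gene, had 91.9 ± 2.6 and 70.7 ± 7.1 CPM (a log2 difference of -0.38, SE 0.10, adjusted p = 0.0683 in edgeR), also with no overlap. Phlda2, Kcnq1 and Ascl2 had too few reads to be tested.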
